A study of Homo sapiens with 9 samples.

Results

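The genes described are 9 regulators of epithelial identity, chosen by name with earlier results of these data known. They are the splicing regulators ESRP1 and ESRP2, and the transcription factors GRHL1, GRHL2, GRHL3, OVOL1, OVOL2, EHF and ELF3. Each had 1 row of its own on the array, so all 9 were measured among 22411 genes with such a row. They were followed in MCF-10A cells, an established non-tumorigenic human breast epithelial line, on 9 whole-transcript arrays. The cells carried a Tet-on system in which doxycycline induced an empty vector (3 arrays), ERK2 with the Y261A substitution (3 arrays) or ERK2 with the D319N substitution (3 arrays), and RNA was taken after 7 days. All 3 groups share the doxycycline system and a medium with horse serum, EGF, insulin, hydrocortisone and cholera toxin. ERK2 is a MAP kinase activated by MEK downstream of RAS and RAF. D319N changes its common docking domain, used by partners with a D motif, and Y261A changes the pocket used by substrates with a DEF motif. No wild-type ERK2 group was analysed here, the labels do not say whether the lines are clones or pools, and they do not say whether replicates are separate cultures. The p-values therefore measure the spread between these arrays, which may be technical.

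ESRP1 and ESRP2 are RNA-binding proteins that select the epithelial exons of transcripts such as those of FGFR2, CD44 and CTNND1. The grainyhead-like factors GRHL1, GRHL2 and GRHL3 activate junction and barrier genes in surface epithelia. OVOL1 and OVOL2 are zinc-finger repressors that hold down ZEB1 and other mesenchymal genes, while EHF and ELF3 are ETS factors found mainly in epithelia. ZEB1 and SNAI2, which drive epithelial-mesenchymal transition, repress epithelial genes through an E-box with the letters CAGGTG, or CACCTG when read on the other strand.

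Promoter sequence was taken from the RefSeq promoter table for GRCh38.p14, in windows of 250 bases before to 50 bases after a start site. Of the 9 genes, 4 matched an entry: GRHL1, GRHL3, EHF and ELF3. The stretches below are the 250 bases before the first listed start of 3 of them, shown because GRHL3 and EHF changed and ELF3 did not pass the test. Capitals mark the E-box letters found by a search of both strands. The GRHL3 stretch is chr1:24319107-24319356, that of ELF3 is chr1:202010337-202010586 and that of EHF is chr11:34624007-34624256, all on the plus strand.
GRHL3: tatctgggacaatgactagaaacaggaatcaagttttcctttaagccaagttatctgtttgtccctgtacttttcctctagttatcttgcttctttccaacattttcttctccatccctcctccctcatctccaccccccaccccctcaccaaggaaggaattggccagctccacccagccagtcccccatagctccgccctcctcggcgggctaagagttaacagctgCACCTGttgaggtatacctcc
ELF3: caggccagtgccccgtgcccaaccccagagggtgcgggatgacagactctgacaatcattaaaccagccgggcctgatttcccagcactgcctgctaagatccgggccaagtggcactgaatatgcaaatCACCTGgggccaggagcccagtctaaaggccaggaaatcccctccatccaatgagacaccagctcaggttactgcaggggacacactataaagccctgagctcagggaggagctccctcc
EHF: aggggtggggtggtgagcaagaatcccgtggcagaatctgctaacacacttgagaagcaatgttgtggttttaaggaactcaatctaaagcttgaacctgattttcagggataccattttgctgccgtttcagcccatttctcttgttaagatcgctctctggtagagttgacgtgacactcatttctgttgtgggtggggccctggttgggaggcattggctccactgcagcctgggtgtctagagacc
The GRHL3 window held 2 matches to CAGGTG on either strand, with first bases at -21 and 10 relative to the start site, and the second start of GRHL3 held none. ELF3 held 1 match, at -120. EHF at both of its listed starts and GRHL1 held none. The motif occurs in 20.6% of all 35116 promoter windows of this length, so a match is a description of the letters and not a binding site. No window of the 4 genes held AACCNGTT, the grainyhead motif, which 1.7% of all windows hold, or CCGGAAGT, an ETS motif, which 4.1% hold, both also searched on either strand.

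In cells expressing ERK2 D319N, ESRP1, ESRP2, GRHL3 and EHF were lower than in vector cells, and none of the 9 genes was higher. ESRP1 and EHF were more than 2-fold lower, and GRHL3 and ESRP2 were lower by 1.66-fold and 1.46-fold. GRHL1, GRHL2, OVOL1, OVOL2 and ELF3 did not pass the test. Of the 9 genes, 4 were called in limma at an adjusted p under 0.05, against 16.6% of all genes tested. All 4 were lower, a call made for 7.66% of all genes, while 8.93% were called higher. At an unadjusted p under 0.05, 6 were lower and 0 were higher, against 14.7% of all genes lower and 13.8% higher. The median difference of the 9 genes was -0.19 on the log2 scale, against -0.03 over all genes. The arrays measure bulk RNA, so fewer cells with a transcript and less of it per cell cannot be told apart.

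In cells expressing ERK2 Y261A, 1 of the 9 genes was called against vector, namely EHF, which was lower, while 0.353% of all genes were called, 0.214% lower and 0.138% higher. At an unadjusted p under 0.05, 3 of the 9 were lower (ESRP1, GRHL3 and EHF) and 0 were higher, against 7.40% of all genes lower and 2.95% higher. The median difference of the 9 was -0.03, against 0.00 over all genes. Compared directly, D319N cells had less ESRP1, ESRP2, GRHL3 and EHF than Y261A cells, so 4 of 9 were called, all lower, against 14.6% of all genes called, 4.72% lower and 9.92% higher. At an unadjusted p under 0.05, 6 were lower and 0 higher in that comparison, against 17.7% and 16.7% of all genes. Both mutants are set against the same 3 vector arrays, so the differences from vector are not independent.

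**Figure D1:**
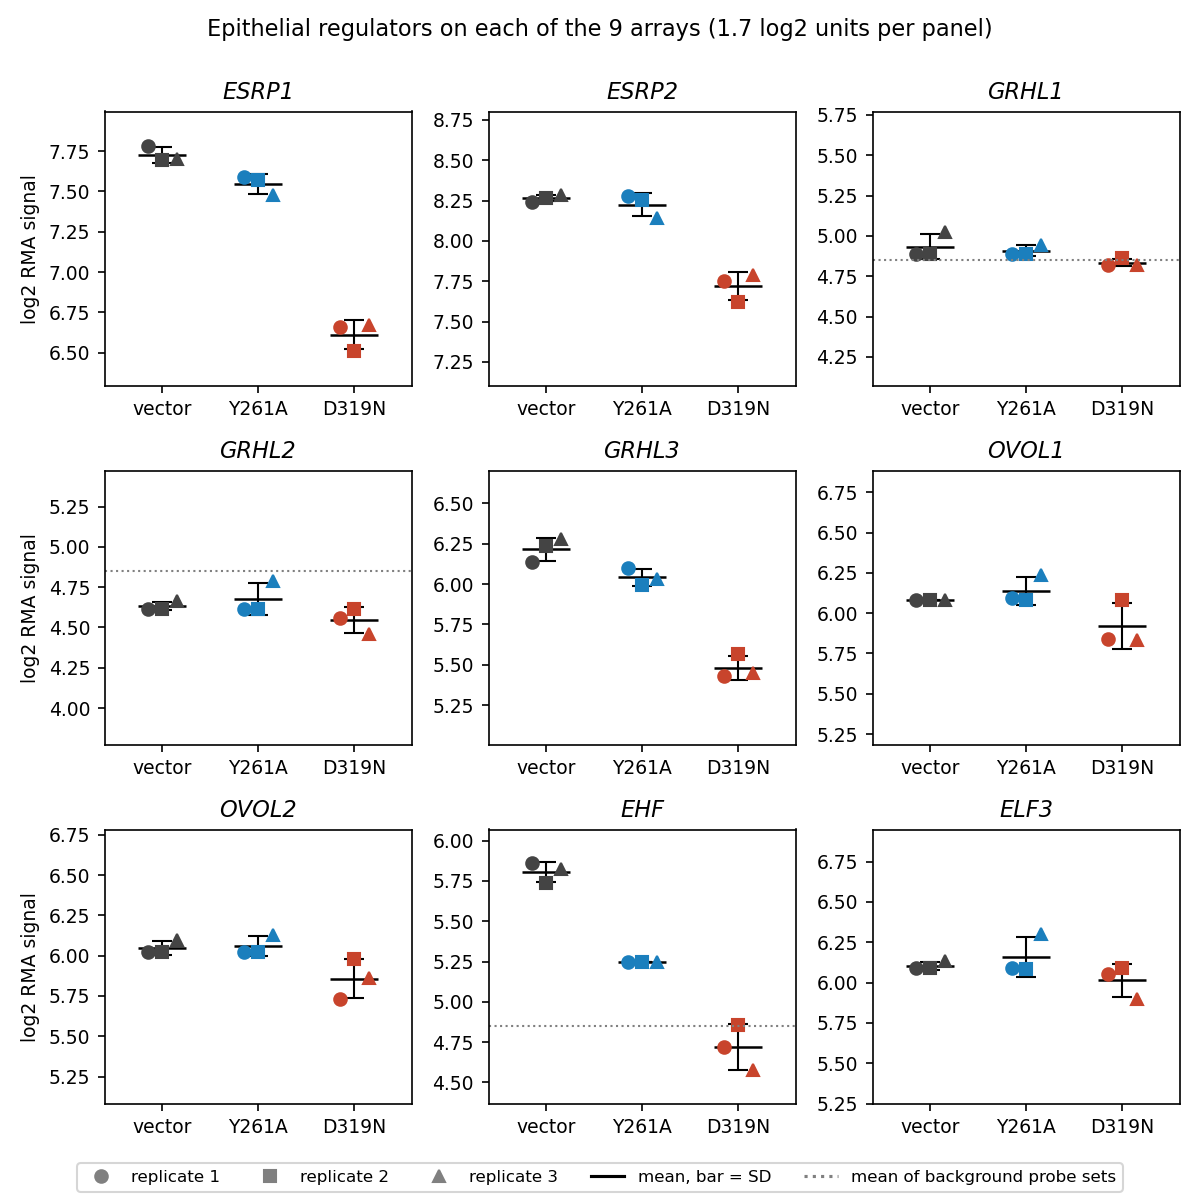
Log2 RMA signal (y axis) of each of the 9 regulators on the 3 vector, 3 Y261A and 3 D319N arrays (x axis), with the group mean, the SD as a bar and a dotted line at 4.85, the mean of the background probe sets. Every panel spans the same height, and D319N arrays lie below all others for ESRP1, ESRP2, GRHL3 and EHF, while the Y261A arrays of EHF lie between the other groups.

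ESRP1, the main epithelial splicing regulator of the pair, read 7.78, 7.70 and 7.70 on the vector arrays, 7.59, 7.57 and 7.48 on the Y261A arrays and 6.66, 6.51 and 6.67 on the D319N arrays (log2 signal). The D319N arrays stood clear of all others, and the Y261A arrays lay just under the vector arrays with no overlap. ESRP1 was 2.16-fold lower in D319N than in vector, with means of 6.61 ± 0.09 and 7.73 ± 0.05 (SD, n = 3) and a log2 difference of -1.11 ± 0.05 (SE, limma adjusted p = 2.4e-05). It was the 27th gene from the lowest of all 22411 by difference, and every alternative tried kept the call. In Y261A the log2 difference from vector was -0.18 ± 0.05 (limma adjusted p = 0.308, 95% interval -0.30 to -0.06), which did not pass over all genes. Between the mutants it was 1.91-fold lower in D319N (log2 -0.93 ± 0.05, limma adjusted p = 9.11e-05).

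ESRP2, the second member of the pair, read 8.24, 8.27 and 8.28 on the vector arrays, 8.28, 8.25 and 8.14 on the Y261A arrays and 7.75, 7.62 and 7.79 on the D319N arrays. Vector and Y261A arrays overlapped, and all D319N arrays lay below both. ESRP2 was 1.46-fold lower in D319N than in vector (log2 -0.54 ± 0.05 SE, limma adjusted p = 0.000512) and 1.42-fold lower than in Y261A (-0.51 ± 0.05, limma adjusted p = 0.00103). In Y261A it differed from vector by -0.04, with a 95% interval of -0.16 to 0.08 (limma adjusted p = 0.785).

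The difference between ESRP1 and ESRP2 on the same arrays was also followed. The log2 value of ESRP1 minus ESRP2 was lower in D319N than in vector by 0.57, and the 3 values of D319N were -1.10, -1.11 and -1.12 against -0.46, -0.57 and -0.59 in vector. In Y261A the 3 values were -0.69, -0.68 and -0.67, again clear of the vector arrays, a mean difference of -0.14. Each of these comparisons had an exact permutation p of 0.1 (two-sided), the smallest that 3 against 3 arrays allow. A change of this quantity between groups shows unequal change of the 2 genes, and the quantity itself does not rank their transcripts, which are read by different probes.

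GRHL3, a grainyhead factor of the epidermal barrier, read 6.14, 6.24 and 6.28 in vector, 6.10, 5.997 and 6.03 in Y261A and 5.43, 5.57 and 5.45 in D319N. The groups did not overlap, but the nearest Y261A and vector arrays were only 0.04 apart. GRHL3 was 1.66-fold lower in D319N than in vector (log2 -0.74 ± 0.05 SE, limma adjusted p = 0.00014) and 1.47-fold lower than in Y261A (-0.56 ± 0.05, limma adjusted p = 0.000665). Its Y261A difference from vector was -0.18 ± 0.05, which did not pass (limma adjusted p = 0.312, 95% interval -0.30 to -0.05). Of the E-box matches in its first promoter window, the one at -21 is in capitals in the stretch printed above, and the one at 10 lies past its end.

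GRHL1 and GRHL2, the other 2 grainyhead factors, had low signal in every group. GRHL1 read 4.89, 4.89 and 5.02 in vector, 4.89, 4.89 and 4.95 in Y261A and 4.82, 4.86 and 4.82 in D319N. Its D319N arrays lay below all others by a gap of 0.03, and the difference from vector of -0.10 ± 0.04 (SE) did not pass (limma adjusted p = 0.161). GRHL2 read 4.62, 4.62 and 4.66 in vector, 4.62, 4.62 and 4.79 in Y261A and 4.56, 4.62 and 4.46 in D319N. GRHL2, which maintains CDH1 and other junction genes in many epithelia, lay under the background mean of 4.85 on all 9 arrays, and its groups overlapped (difference from vector -0.09 ± 0.06, limma adjusted p = 0.354). The 23 background probe sets range from 1.83 to 12.00, so their mean is a rough guide, and the GRHL2 row limits what can be said of this gene. Against Y261A, GRHL1 and GRHL2 in D319N differed by -0.07 and -0.13 and did not pass.

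EHF read 5.86, 5.74 and 5.82 in vector, 5.25 on each of the 3 Y261A arrays and 4.72, 4.86 and 4.58 in D319N. It was the only gene of the 9 called in all 3 comparisons. The levels of EHF, like those of ESRP1 and GRHL3, ran in the order vector, Y261A, D319N with no overlap between any pair of groups. In D319N it was 2.12-fold lower than in vector (log2 -1.09 ± 0.07 SE, limma adjusted p = 7.65e-05), the 31st gene from the lowest, and 1.44-fold lower than in Y261A (-0.53 ± 0.07, limma adjusted p = 0.00262). In Y261A it was 1.47-fold lower than in vector (-0.56 ± 0.07, limma adjusted p = 0.0269), the 21st gene from the lowest in that comparison. The D319N mean of 4.72 ± 0.14 lies under the background mean of 4.85, so both folds and the rank in D319N rest on a level not above background.

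The EHF call in Y261A depended on which arrays were kept. The deposited value was identical, 5.24722, on all 3 Y261A arrays, so the SD there is 0.00 and the spread comes from the other groups. The adjusted p passed in 2 of 9 fits without 1 array, those without D319N replicate 2 or D319N replicate 3. It missed in the 7 others, the highest being an adjusted p of 0.138 without Y261A replicate 2, while the difference stayed between -0.59 and -0.53 in all of them. With the replicate number as a block the limma adjusted p was 0.146. Among the 40 genes called at least 2-fold lower in D319N than in vector (0.178% of all genes) were 2 of the 9, ESRP1 and EHF. The call of EHF against vector in D319N was kept under every alternative tried.

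ELF3, the other epithelial ETS factor of the set, read 6.09, 6.09 and 6.13 in vector, 6.09, 6.09 and 6.30 in Y261A and 6.06, 6.09 and 5.90 in D319N. Its groups overlapped, and it was called in no comparison. The D319N difference from vector was -0.09 ± 0.07 (SE), with a 95% interval of -0.26 to 0.08 (limma adjusted p = 0.436).

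**Figure D2:**
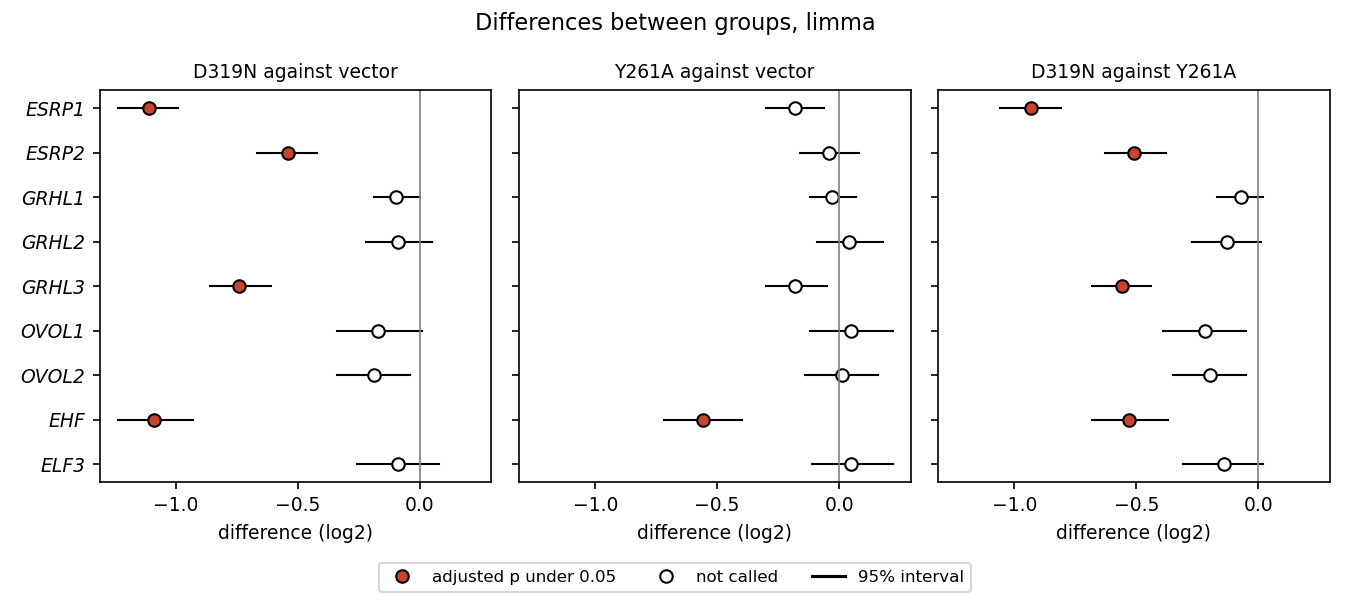
Log2 difference (x axis) of each regulator (y axis) in the 3 comparisons, with the 95% interval from limma. Filled points have an adjusted p under 0.05, which holds for ESRP1, ESRP2, GRHL3 and EHF in both comparisons of D319N and for EHF in Y261A against vector.

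OVOL1 read 6.08 on each of the 3 vector arrays, 6.09, 6.08 and 6.23 in Y261A and 5.84, 6.08 and 5.83 in D319N. D319N replicates 1 and 3 lay below all other arrays, while D319N replicate 2 had exactly the value of the vector arrays, 6.08457. The D319N difference from vector was -0.17 ± 0.07 (SE, limma adjusted p = 0.189), and that from Y261A was -0.22 ± 0.07 (limma adjusted p = 0.0924). Without D319N replicate 2 both passed, at -0.25 (limma adjusted p = 0.0141) and -0.30 (limma adjusted p = 0.00809).

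OVOL2, which represses ZEB1, read 6.02, 6.02 and 6.09 in vector, 6.02, 6.02 and 6.13 in Y261A and 5.73, 5.98 and 5.86 in D319N. All D319N arrays were below all others, by a gap of 0.04. The differences of D319N from vector and from Y261A were -0.19 ± 0.06 (SE, limma adjusted p = 0.092) and -0.20 ± 0.06 (limma adjusted p = 0.0779). Without D319N replicate 2 these too passed, at -0.25 (limma adjusted p = 0.021) and -0.26 (limma adjusted p = 0.0184). In Y261A neither OVOL gene passed against vector, with differences of 0.05 and 0.01 and 95% intervals of -0.12 to 0.22 and -0.14 to 0.16.

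Tied values accompany the small differences, and also those of EHF. OVOL1 and GRHL2 each had 1 value on 5 of the 9 arrays, and GRHL1, OVOL2 and ELF3 each had 1 value on 4 arrays. EHF, called in all 3 comparisons, had 7 distinct values, with 1 value on its 3 Y261A arrays. ESRP1, ESRP2 and GRHL3 had 9 distinct values each. Over all genes, 63.4% had a tie within at least 1 group. Array by array, D319N replicate 2 deviated from its group mean downward for ESRP1 and ESRP2 (-0.10 each) and upward for the other 7 genes, most for OVOL1 (0.17), EHF (0.14) and OVOL2 (0.12). Over all genes its deviations correlated with those of Y261A replicate 3 at 0.60, a correlation across genes, which are not independent replicates. Without both arrays, 7 of the 9 were called lower in D319N than in vector and 6 lower than in Y261A. The share of all genes called in either direction rose as well without them, to 35.6% and 27.9%.

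**Figure D3:**
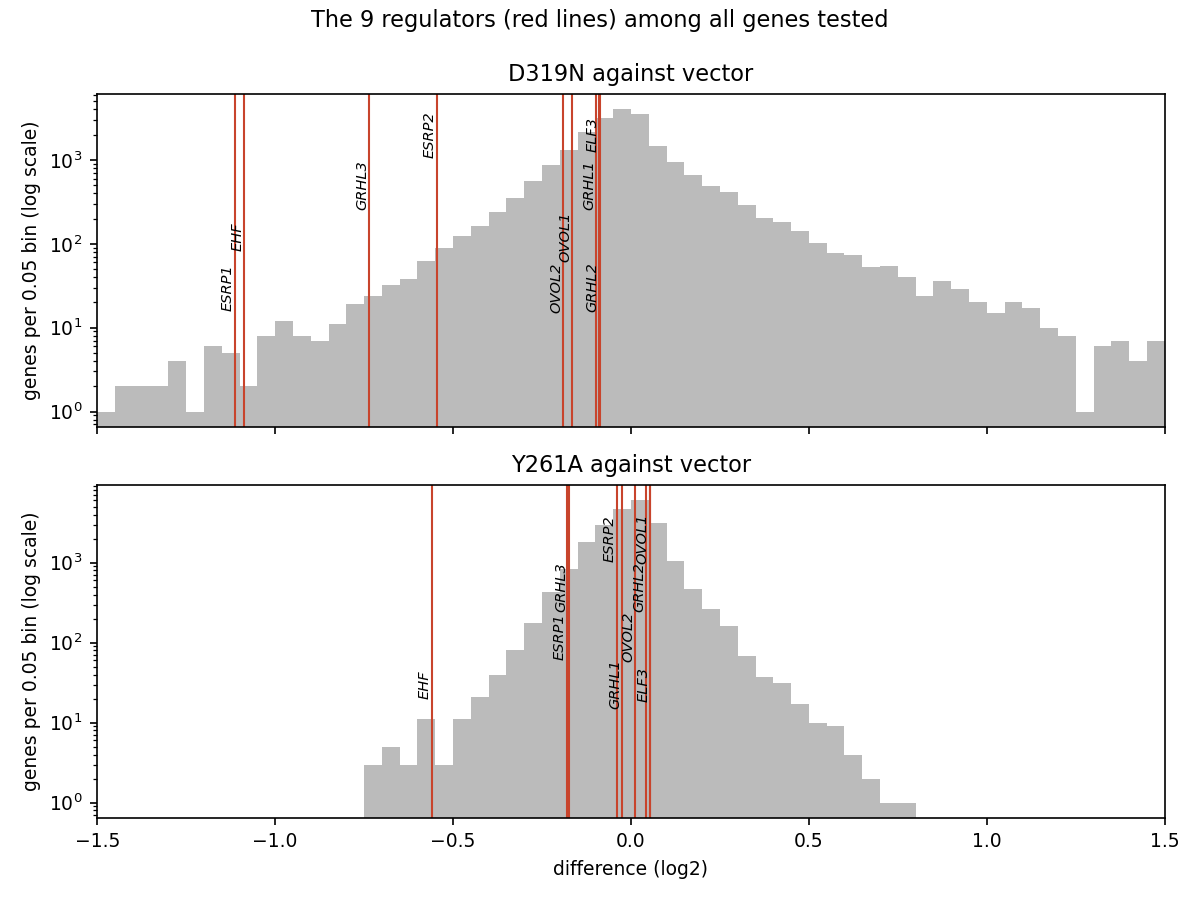
Distribution of log2 differences from vector over all 22411 genes (grey, genes per bin on a log axis) for D319N (top) and Y261A (bottom), cut at 1.5 on each side, with red lines at the 9 regulators. ESRP1 and EHF lie at -1.11 and -1.09 in the thin lower tail for D319N, and in Y261A only EHF, at -0.56, does.

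Counted by arrays that do not overlap, 6 of the 9 genes had every D319N array below every vector array, against 16.9% of all genes. Against Y261A the count was also 6, with 12.6% of all genes. For Y261A against vector it was 3 genes, ESRP1, GRHL3 and EHF, against 9.24% of all genes.

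Genes with profiles most like those of the 4 called regulators were found by the root mean square difference of log2 profiles over the 9 arrays, each centred on its own mean, among 22402 other genes. For ESRP1 they were FABP5P7 (0.075), the mitochondrial chaperone gene TRAP1 (0.080) and HOOK1 (0.082). FABP5P7 is a pseudogene that shares sequence with FABP5, so the source of its signal is uncertain. For ESRP2 they were SERINC2 (0.039), TTLL12 (0.043) and the RNA polymerase I subunit gene POLR1B (0.051). For GRHL3 they were VSNL1 (0.048), SH3RF2 (0.062) and SYT8 (0.063), and for EHF the sorting receptor gene SORL1 (0.086), TNNI2 (0.088) and the glutamate transporter gene SLC1A3 (0.092). SORL1 had means of 6.73, 6.16 and 5.56 in vector, Y261A and D319N. Within 0.1 of the profile there were 134 genes for ESRP2, 43 for GRHL3, 12 for ESRP1 and 3 for EHF.

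Family relatives of the 9 genes were read on the same arrays. TFCP2L1, a factor of the LSF branch of the grainyhead family, was 1.51-fold lower in D319N than in vector, at 7.98 ± 0.15 against 8.57 ± 0.03 (SD, n = 3, log2 -0.59 ± 0.08 SE, limma adjusted p = 0.0021). It was also lower than in Y261A (-0.35, limma adjusted p = 0.0245), a call that 6 of 21 alternatives lost. TFCP2 (-0.01) and UBP1 (-0.06) of the same branch did not pass against vector. ELF5 (-0.04) and SPDEF (-0.08), ETS factors grouped with EHF and ELF3, did not pass either, and 0 of these 2 had an unadjusted p under 0.05 in limma. ELF5 had means of 4.10, 4.13 and 4.06 in vector, Y261A and D319N, all under the background mean of 4.85. The count of the 2 called against vector in D319N ranged from 0 to 2 over the alternatives. It was above 0 only with array weights and without D319N replicate 2 and Y261A replicate 3 together.

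Among 14 genes reported as grainyhead targets, 6 fell and 0 rose in D319N against vector, while 7.66% of all genes were called lower and 8.93% higher. The list had a median of -0.11, against -0.03 over all genes. At an unadjusted p under 0.05, 7 of the 14 were lower and 1 was higher, against 14.7% of all genes lower and 13.8% higher. EPCAM, an epithelial adhesion gene, fell from 8.88 ± 0.19 to 6.22 ± 0.19 (SD, n = 3, log2 -2.66). CDH1, which encodes E-cadherin (-1.38), the tight junction genes OCLN (-0.98) and CLDN7 (-0.78), and the membrane protease gene ST14 (-0.67) fell too. TGM1, a cross-linking enzyme of the barrier, fell by 0.21 on the log2 scale (limma adjusted p = 0.0314), and 10 of 21 alternatives lost that call. CLDN4 (-0.15), RAB25 (-0.03) and ERBB3 (0.13), also reported targets, did not pass. Against Y261A, 6 of the 14 were lower in D319N and 1 was higher, beside 4.72% of all genes called lower and 9.92% higher. The higher one was the protease inhibitor gene SPINT1 (0.30, limma adjusted p = 0.0361), whose call 10 of 21 alternatives lost. CLDN4 was among the lower ones in that comparison (-0.21, limma adjusted p = 0.032), a call that 12 of 21 alternatives lost. OCLN, TGM1, CLDN4, RAB25 and ERBB3 were named after their values were seen.

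Of 6 measured genes reported as repressed by OVOL factors, 3 rose and 2 fell in D319N against vector, with a median of 0.42. All genes had a median of -0.03 in that comparison, with 8.93% called higher and 7.66% lower. ZEB1 rose from 5.32 ± 0.10 to 6.39 ± 0.07 (SD, n = 3, log2 1.07 ± 0.06 SE, limma adjusted p = 5.81e-05), the N-cadherin gene CDH2 by 0.94 and the vimentin gene VIM by 0.67. MYC (-0.68) and NOTCH1 (-0.42) fell. Among 10 measured EMT transcription factors, 3 rose and 0 fell (0 also at an unadjusted p under 0.05 in limma), namely SNAI2 (1.49), ZEB1 and TWIST1 (0.61), while SNAI1 (-0.21) did not pass. ZEB2 was not analysed here. The 2 lists share ZEB1.

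Of 10 genes reported as targets of ELF3 or EHF, 3 rose and 1 fell in D319N against vector, with a median of -0.03. That median equals the one over all genes, of which 8.93% were called higher and 7.66% lower. The inflammatory genes CCL20 (0.56) and PTGS2 (0.53) rose, PTGS2 from 4.17 to 4.71, both under the background mean of 4.85. So did the receptor gene TGFBR2 (0.25, limma adjusted p = 0.0304), whose call 9 of 21 alternatives lost. CLDN7, which the list shares with the grainyhead targets, fell.

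Transcripts known to be spliced by the ESRP proteins were read at the level of whole genes, so exon choice was not measured. Of 17 measured, 5 rose and 1 fell in D319N against vector, with a median of 0.15. The median over all genes was -0.03, with 8.93% called higher and 7.66% lower. CD44, a hyaluronan receptor, rose from 9.69 ± 0.04 to 10.26 ± 0.08 (SD, n = 3, log2 0.57, limma adjusted p = 0.0005), and SLC37A2 (0.87) and EXOC7 (0.31) rose as well. ENAH, an actin regulator, fell (-0.36). FGFR2, named after its values were seen, differed by -0.05 and did not pass. Against Y261A, 8 rose and 0 fell in limma, while 9.92% of all genes were called higher and 4.72% lower. Of the 17, 12 were higher and 2 lower at an unadjusted p under 0.05, against 16.7% of all genes higher and 17.7% lower. Among those that rose were CD44 (0.64), SLC37A2 (0.64) and the Notch inhibitor NUMB (0.51). The count called in this comparison ranged from 4 to 13 over the alternatives and changed by over 1.5 times in 10 of 21, the replicate block among them.

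Of 14 other splicing regulators measured, 3 fell and 1 rose in D319N against vector, while 7.66% of all genes were called lower and 8.93% higher. SRSF1 (-0.26), HNRNPM (-0.24) and RBM47 (-0.12) fell, and RBFOX2, which favours mesenchymal exons, rose (0.26, limma adjusted p = 0.00752). The calls of SRSF1, HNRNPM and RBM47 were lost in 7, 4 and 3 of 21 alternatives. Against Y261A, RBFOX2 was the 1 gene called, higher by 0.39. Of 12 other transcription factors of epithelial cells, ELF1 rose (0.31) and FOXA1 fell (-0.13, limma adjusted p = 0.049) in D319N against vector. The FOXA1 call was lost in 14 of 21 alternatives. These were 2 calls among 12 genes, beside 16.6% of all genes called in either direction. The count called ranged from 1 to 7 over the alternatives. ELF1 (0.36) and KLF5 (0.28) were higher in D319N than in Y261A, a call made for 9.92% of all genes. The count of the 12 called in that comparison ranged from 2 to 7.

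In Y261A against vector none of the 85 measured genes of these related lists was called in limma, while 24 were lower and 3 higher at an unadjusted p under 0.05, a threshold that 7.40% of all genes passed lower and 2.95% higher. Their median was -0.06, against 0.00 over all genes. EPCAM differed by -0.66 (limma adjusted p = 0.093), TFCP2L1 by -0.24, ZEB1 by 0.15 and SNAI2 by 0.15. In D319N against vector, 14 of the 85 fell and 15 rose, against 7.66% of all genes called lower and 8.93% called higher.

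**Figure D4:**
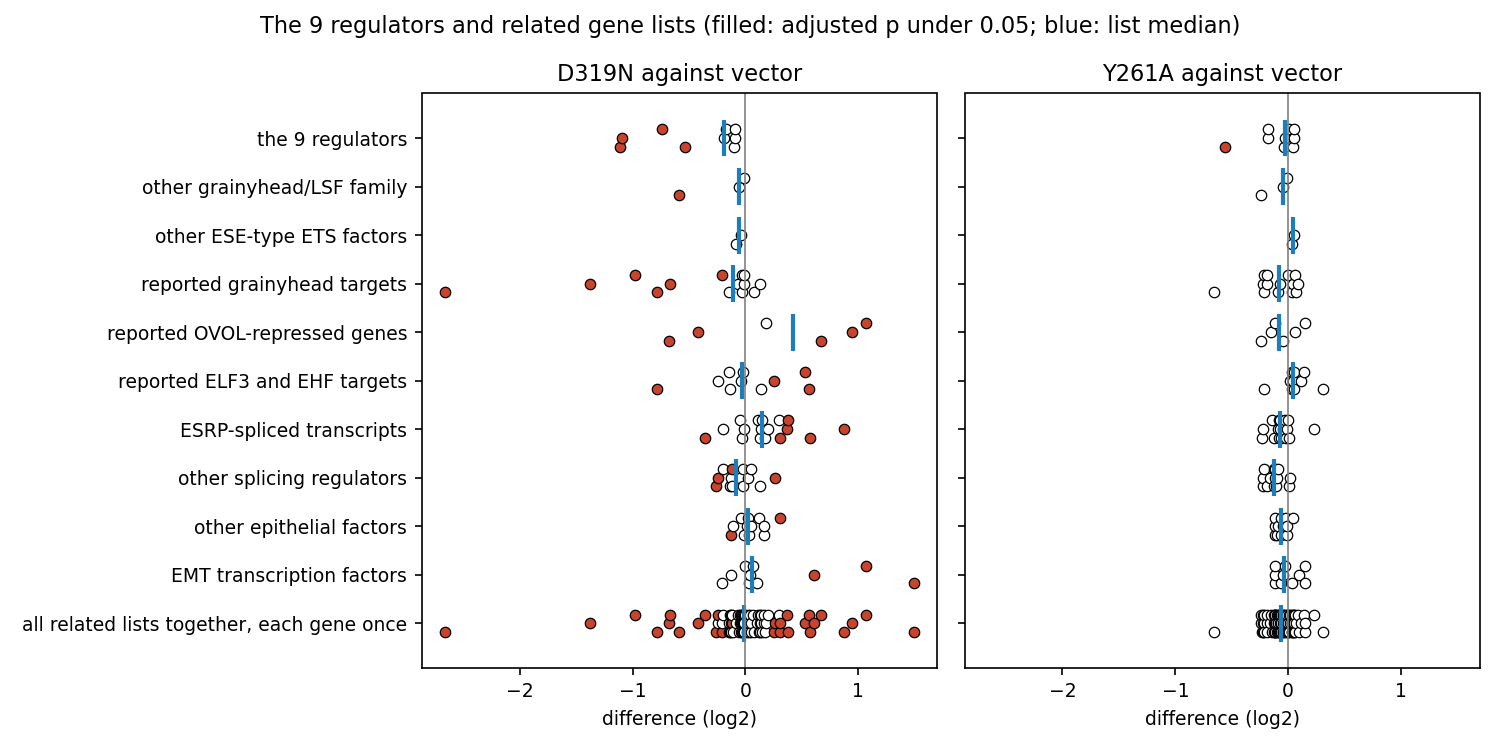
Log2 differences from vector (x axis) in D319N (left) and Y261A (right), for the 9 regulators and 9 related gene lists (y axis). A further row pools the related lists, each gene once. Each row has 1 point per gene, filled where the adjusted p is under 0.05, with the list median in blue. Filled points lie on both sides of 0 for D319N, and EHF is the only filled point for Y261A.

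Markers were read beside these results. In D319N against vector, 7.66% of all genes were called lower and 8.93% higher. The shares were 4.72% and 9.92% in D319N against Y261A, and 0.214% and 0.138% in Y261A against vector. Of 10 basal breast epithelial markers, 5 were measured, all above the background mean in each group, and 1 fell in D319N against vector, KRT5 (-1.29). Their summed linear signal was 10600 to 10900 on vector arrays, 8990 to 10100 in Y261A and 6320 to 7140 in D319N. Such a sum can follow 1 gene. KRT5 went from a log2 mean of 12.78 in vector to 11.49 in D319N. KRT14 (-0.03), CDH3 (-0.04), ITGB4 (0.15) and EGFR (0.04) did not pass in that comparison. Against Y261A, 2 of the 5 were called lower in D319N, KRT5 (-0.94) and KRT14 (-0.36, limma adjusted p = 0.0038). KRT14 had means of 6.97, 7.31 and 6.94 in vector, Y261A and D319N. Of 8 luminal markers, 3 fell in D319N against vector, KRT18 (-0.65), KRT8 (-0.27) and FOXA1. The KRT8 call was lost in 4 of 21 alternatives, and the count of luminal markers called ranged from 1 to 5. Their summed signal went from 2240 to 2410 in vector to 1680 to 1890 in D319N. The luminal marker MUC1 went the other way, by 0.16 in D319N against vector, which did not pass (limma adjusted p = 0.13). It was called higher in D319N than in Y261A (0.43, limma adjusted p = 0.00365), a comparison in which no luminal marker was called lower. Of 7 fibroblast markers DCN alone was called, higher in D319N (2.42) and in Y261A (0.56, limma adjusted p = 0.033), the latter call lost in 11 of 21 alternatives. Its difference of D319N from vector ranged from 1.22 to 2.53 over the alternatives. The fibroblast list had sums of 330 to 331 in vector, 340 to 374 in Y261A and 453 to 479 in D319N, while DCN went from a log2 mean of 5.01 in vector to 7.43 in D319N. The collagen gene COL1A1, like PTPRC named after its values were seen, was at 6.76 in all 3 groups. Of 6 leukocyte markers CD68 alone was called (1.57), from a log2 mean of 7.25 in vector to 8.82 in D319N. The sums of that list were 366 to 382 in vector, 380 to 395 in Y261A and 588 to 725 in D319N. PTPRC, the defining leukocyte gene, was at 2.97 in all 3 groups. None of 6 endothelial markers was called in limma, with 1 higher at an unadjusted p under 0.05, and their sums were 294 to 313 in vector, 300 to 340 in Y261A and 269 to 314 in D319N. The part of these markers in the results was not tested.

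**Figure D5:**
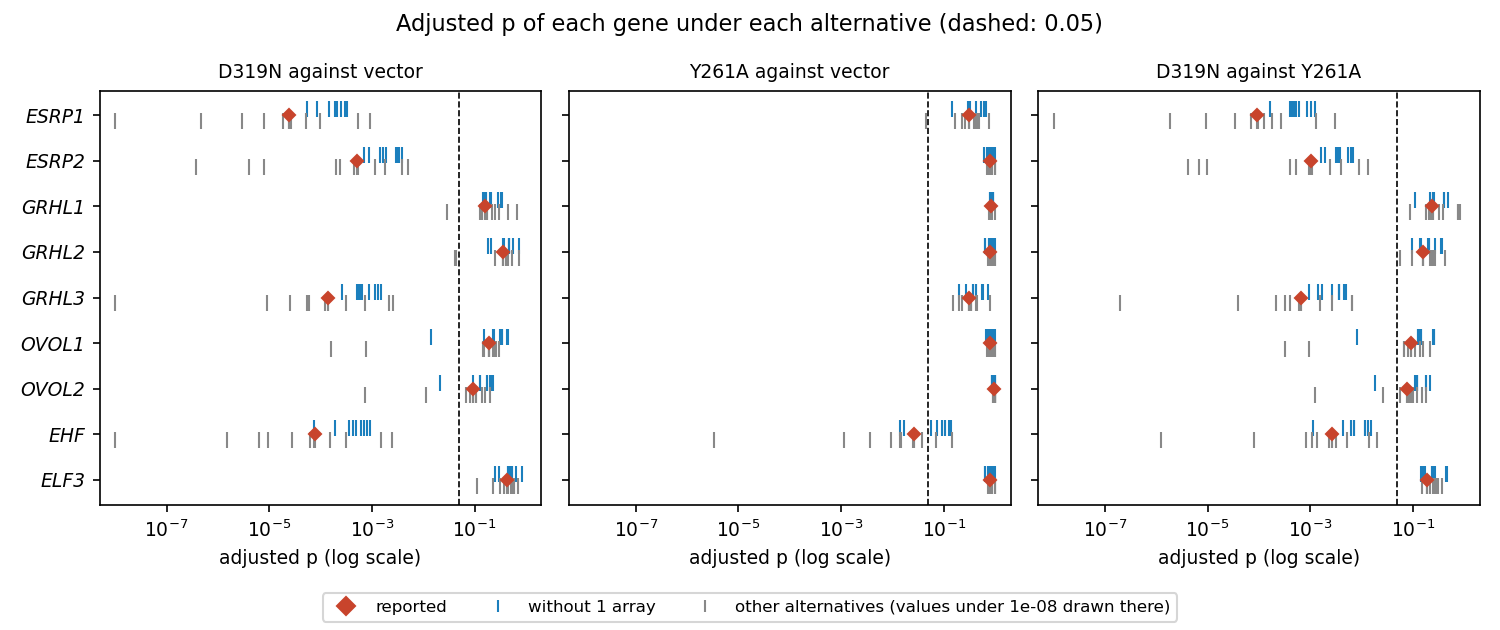
Limma adjusted p (x axis, log scale) of each regulator in the 3 comparisons as reported (diamonds), without 1 array (blue) and under the other alternatives (grey), with a dashed line at 0.05. For D319N, ESRP1, ESRP2, GRHL3 and EHF stay left of the line under every alternative, and OVOL1 and OVOL2 cross it in some. Against vector, GRHL1 in D319N crosses it in 1 alternative, GRHL2 in D319N in 2 and ESRP1 in Y261A in 1. EHF lies on both sides of it in Y261A.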

How the data were processed

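RNA from 9 MCF-10A samples was hybridized to Affymetrix arrays. The deposited values are log2 signals. Affymetrix Expression Console 1.4 and RMA are named as the authors' tools, per the submitters' processing notes. RMA brings all arrays to 1 intensity distribution, and its median polish can return identical values on several arrays. No label or file header used here names the array's genome build.

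Of 70523 rows, 23781 had a single gene symbol in the platform annotation. Symbols were updated through a RefSeq table for GRCh38.p14 (306 changed, 4 unmatched), and the row with the highest mean stood for a gene, which left 22411 genes. Differences were tested in R 4.3.3 using limma 3.58.1, with a mean per group over all 9 arrays, eBayes, and Benjamini-Hochberg adjustment over all genes of a comparison at 0.05. There were 6 residual and 1.23 prior degrees of freedom. Replicate arrays correlated at 0.9946 to 0.9986 over genes. Arrays hold no counts, and their number limits the precision.

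The 9 genes and the lists were chosen with earlier results of these data known. Named genes are the 9, up to 4 per list and comparison with the smallest p, and 3 most similar genes per called gene, besides those the text says were named after their values were seen. Alternatives left out arrays, added the replicate number as a block, changed scaling, filtering and moderation, or used other rows. Whether the transgenes were induced was not checked here.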

Additional observations from a re-analysis of the deposited data

How the results depend on the processing

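The calls of ESRP1, ESRP2, GRHL3 and EHF as lower in D319N, against vector and against Y261A, held under all 21 alternatives, with a highest adjusted p of 0.0197. The count of the 9 genes called in D319N against vector was 4. It was 7 without D319N replicate 2 and Y261A replicate 3 together and 8 with array weights. Those 2 settings called 35.6% and 51.9% of all genes. Without 1 array the count was 4 to 6, beside 11.3% to 20.4% of all genes. Against Y261A it was 4 to 6 without 1 array, beside 8.7% to 23.7% of all genes. In Y261A against vector the count of 1 was 0 with the replicate block, 0 over every row that is not a control, 2 with array weights, and 0 to 1 without 1 array. Of all genes, 0.1% were called there with the block, 4.4% with array weights and at most 0.6% without 1 array. The cause was not tested. The replicate block changed no other call of the 9 genes. Same-numbered arrays of D319N and Y261A had correlated deviations of 0.21, -0.40 and -0.45, so the numbers were not taken as pairs.

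Counts over all genes in D319N against vector (3718) were 7979 without those 2 arrays, 11631 with array weights and 5887 over every row, and 2523 to 4572 without 1 array. In D319N against Y261A (3281) they were 6259 without those 2 arrays, 10403 with array weights, 1933 with only the arrays of the 2 groups and 1941 to 5302 without 1 array. In Y261A against vector (79) they were 157 without those 2 arrays, 13 with the replicate block, 45 with arrays centred, 134 with quantile normalization, 988 with array weights, 252 with a floor on the spread, 26 over every row, and 9 to 133 without 1 array. The share of calls that were higher, 39.2% in Y261A against vector, was 58.2% with quantile normalization, and 67.8% in D319N against Y261A was 77.9% with centring and 55.0% with quantile normalization. It was 41.7% with array weights in the latter comparison, and in D319N against vector 53.8% became 38.3% with array weights and 44.2% without those 2 arrays. Without 1 array it ran from 26.2% (vector replicate 3) to 60.9% (Y261A replicate 3) in Y261A against vector.

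Among the differences of the 9 genes, signs turned only for uncalled differences of Y261A from vector. These were ESRP2 (0.00 without Y261A replicate 3 or without both arrays, 0.03 with quantile normalization, 0.01 with weights) and GRHL1 (0.02 without vector replicate 3). Without Y261A replicate 3, or without both arrays, ELF3, GRHL2 and OVOL2 were each -0.02. With weights they were -0.00, -0.00 and -0.01. OVOL2 was -0.00 with centring and -0.01 with quantile normalization. Without 1 array the ranges were -0.02 to 0.09 for ELF3, -0.07 to 0.00 for ESRP2, -0.05 to 0.02 for GRHL1, -0.02 to 0.07 for GRHL2 and -0.02 to 0.04 for OVOL2. GRHL2 could not be tested with the filter at the background mean, which removes it.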
